A study of Mus musculus with 22 samples.

Results

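The 33 genes described here encode enzymes and regulators of cholesterol and fatty acid synthesis, and they were chosen by symbol from the 16059 genes of the expression table. All 33 had a row in the table, and all 33 were among the 12213 genes that passed a filter on low counts. By role, 7 act from acetyl-CoA to farnesyl diphosphate (the mevalonate pathway), 11 act from squalene to cholesterol, 6 control the pathway or carry its product, and 9 make or modify fatty acids. Their RNA was measured in macrophages, a phagocyte type, that were derived from the bone marrow of C57/BL6 mice over 7 days in medium with 30% L929 cell supernatant and then treated for 3 h. There were 5 groups of 2 RNA-seq libraries each. LPS+LA cells received 100 ng/ml lipopolysaccharide (LPS, a bacterial cell wall component sensed by Toll-like receptor signalling) with 10 mM L-(+)-lactic acid (LA). LPS+HCl cells received the same LPS with hydrochloric acid, for which the labels give pH 6.5 as an example. LPS cells received LPS alone, LA cells received lactic acid alone at a dose that the labels do not state, and control cells received neither. ATAC-seq, in which a transposase cuts open chromatin, was done on 12 samples, 3 each of LPS+LA, LPS, LA and control. The labels do not say whether the replicates are separate cultures or mice, and the p-values therefore cover the spread between libraries alone, part of which may be technical.

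Cells build cholesterol from acetyl-CoA through mevalonate, isoprenoid diphosphates, squalene and lanosterol, and build fatty acids from the same acetyl-CoA through malonyl-CoA. Both routes are controlled by sterol regulatory element-binding proteins (SREBPs), membrane-bound transcription factors made by Srebf1 and Srebf2. When sterols are scarce, the escort protein SCAP carries SREBPs to the Golgi for cleavage, and when sterols are plentiful, INSIG proteins hold SCAP in the endoplasmic reticulum. Most of the enzymes listed here are known SREBP targets, as is Insig1. Macrophages need these lipids for membranes and for the phagosomes and vesicles they form.

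SREBPs bind the sterol regulatory element and usually act with the factor NF-Y, which binds CCAAT. RefSeq promoter windows (GRCm38.p6, 250 bases before to 50 after a gene's start, in the direction of the gene) matched 26 of the 33 genes by gene identifier. The windows of 5 genes are shown, because these genes differ in how their RNA changed in the main results. Mvd and Fasn were lower with LPS, Insig1 and Hsd17b7 were lower with LPS+LA than with LPS, and Hmgcs1 passed no test. Capitals mark CCAAT on either strand (CCAAT or ATTGG) and, in Hmgcs1, the sterol regulatory element. The positions are chr8:122443373-122443672 on the minus strand for Mvd, chr11:120824498-120824797 on the minus strand for Fasn, chr5:28071162-28071461 on the plus strand for Insig1, chr1:169969156-169969455 on the minus strand for Hsd17b7 and chr13:119690101-119690400 on the plus strand for Hmgcs1.
Mvd: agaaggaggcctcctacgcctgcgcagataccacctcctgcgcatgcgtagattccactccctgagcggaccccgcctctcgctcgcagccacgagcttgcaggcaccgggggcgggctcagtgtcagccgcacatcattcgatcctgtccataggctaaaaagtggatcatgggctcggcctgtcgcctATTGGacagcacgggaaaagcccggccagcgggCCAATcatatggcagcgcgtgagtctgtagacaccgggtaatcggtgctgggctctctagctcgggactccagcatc
Fasn: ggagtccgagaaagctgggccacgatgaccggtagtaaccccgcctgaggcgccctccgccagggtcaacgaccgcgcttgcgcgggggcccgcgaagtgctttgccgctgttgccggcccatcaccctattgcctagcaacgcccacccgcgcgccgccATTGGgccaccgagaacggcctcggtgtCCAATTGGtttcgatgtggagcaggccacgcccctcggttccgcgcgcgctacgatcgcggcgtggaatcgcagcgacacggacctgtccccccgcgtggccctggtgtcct
Insig1: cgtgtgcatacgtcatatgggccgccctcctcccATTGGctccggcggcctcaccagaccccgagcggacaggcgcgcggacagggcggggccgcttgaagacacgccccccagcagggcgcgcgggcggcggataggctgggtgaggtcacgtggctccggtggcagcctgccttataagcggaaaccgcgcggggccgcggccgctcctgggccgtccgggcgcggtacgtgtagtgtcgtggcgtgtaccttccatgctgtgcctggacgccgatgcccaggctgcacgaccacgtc
Hsd17b7: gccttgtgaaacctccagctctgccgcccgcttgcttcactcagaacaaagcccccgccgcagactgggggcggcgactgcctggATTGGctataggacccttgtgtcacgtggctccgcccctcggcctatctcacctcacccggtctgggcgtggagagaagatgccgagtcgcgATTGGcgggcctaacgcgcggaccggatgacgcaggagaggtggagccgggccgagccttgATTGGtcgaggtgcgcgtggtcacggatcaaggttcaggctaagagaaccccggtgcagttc
Hmgcs1: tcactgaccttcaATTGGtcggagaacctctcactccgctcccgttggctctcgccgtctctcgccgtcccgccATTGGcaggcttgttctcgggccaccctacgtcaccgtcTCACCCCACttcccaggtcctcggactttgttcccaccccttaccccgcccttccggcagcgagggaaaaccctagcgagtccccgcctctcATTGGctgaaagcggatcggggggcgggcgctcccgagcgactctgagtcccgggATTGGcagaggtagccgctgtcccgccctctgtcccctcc

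Every printed window held CCAAT at least once, and in Fasn a CCAAT and an ATTGG overlapped, 62 and 59 bases before the start. Over the 26 matched genes, 21 held CCAAT on either strand (80.8%), beside 41.1% of all 27025 genes with a window and 43.5% of the 9797 tested genes with one. The letters TCACNCCAC, searched on both strands as a sterol regulatory element, were found in 1 of 26 (3.85%, beside 1.44% of all genes with a window), as TCACCCCAC 137 bases before the Hmgcs1 start. The GC box GGGCGG was in 22 of 26 (84.6%, beside 38.2% of all and 68.2% of tested genes), and the E-box CACGTG was in 5 (19.2%, beside 8.09% and 11.8%). The palindrome TGACGTCA, a cyclic AMP response element, was in 0 of 26, beside 2.03% of all genes. The CCAAT letters were thus shared by genes whose RNA moved in opposite directions, and these shares are descriptions of letters, with no test. Only exact letters inside the windows were counted, so elements with other letters or outside the windows were missed. A gene with several windows counted if any of them held the letters.

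The 10 libraries held 18668648 to 20219888 counts each, and the genes described here had from 64 estimated reads (Elovl6) to 17028.95 (Scd2) in a library. TMM scaling factors, which correct for RNA composition, ran from 0.759 in an LPS library to 1.27 in a control library, so results under plain total-count scaling are given beside the main ones. Total-count scaling moved the median log2 change of all tested genes in LPS against control from -0.05 to -0.77, in LPS+LA against LPS from 0.03 to 0.43, and in LPS+HCl against LPS from 0.01 to 0.25. Counts of genes called under total-count scaling carry this shift. They are given without the share of all tested genes called under that scaling, so they do not set these genes apart from the rest. Defining markers of macrophages summed to 13180 to 18970 CPM (counts scaled to library size) in every library. Neuron markers (8 genes) summed to 29.6 CPM in LPS+HCl replicate 2 and to 15.3 CPM in control replicate 1, and to at most 5.73 CPM in the other libraries. Their part in the results was not tested, and results that change without both libraries are given with and without them. Summed markers of fibroblasts reached at most 1.38 CPM. Of 3 markers of adipocytes, a lipid-making cell type, only 1 had a row, and it reached at most 0.105 CPM. Oligodendrocyte markers summed to 88.2 to 106.7 CPM, mostly from Mbp and Cnp, and astrocyte markers to 71.8 to 87.6 CPM, mostly from Aldoc.

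Levels of different genes were compared in the authors' TPM values, which are corrected for transcript length. In control cells Scd2 (stearoyl-CoA desaturase 2, which makes monounsaturated fatty acids) had the highest mean, 310.3 TPM, followed by Fdps (farnesyl diphosphate synthase) at 252.8 TPM and Fads2 (delta-6 desaturase) at 249.4 TPM. Elovl6, a long-chain fatty acid elongase, was among the lowest at 7.82 TPM in control cells. The group with the highest mean TPM was control for 30 of the 33 genes and LA for Pmvk, Tm7sf2 and Acss2. Over all 33 genes the sum was 1497 and 1540 TPM in the LPS+LA libraries, 1284 and 1247 TPM in LPS+HCl, 1106 and 1173 TPM in LPS, 2325 and 1910 TPM in LA, and 2666 and 2594 TPM in control. The sums of the 5 groups did not overlap, with LPS lowest and control highest, and LA had the widest gap between its libraries. The 9 fatty acid genes summed to 475 and 497 TPM in LPS+LA, 403 and 392 TPM in LPS+HCl, 287 and 303 TPM in LPS, 827 and 672 TPM in LA, and 963 and 956 TPM in control. The 6 control and transport genes had the narrowest spread, from 281 TPM in an LPS+HCl library to 474 TPM in a control library. TPM values carry the same composition shift as total-count scaling, and these sums were not tested.

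**Figure D1:**
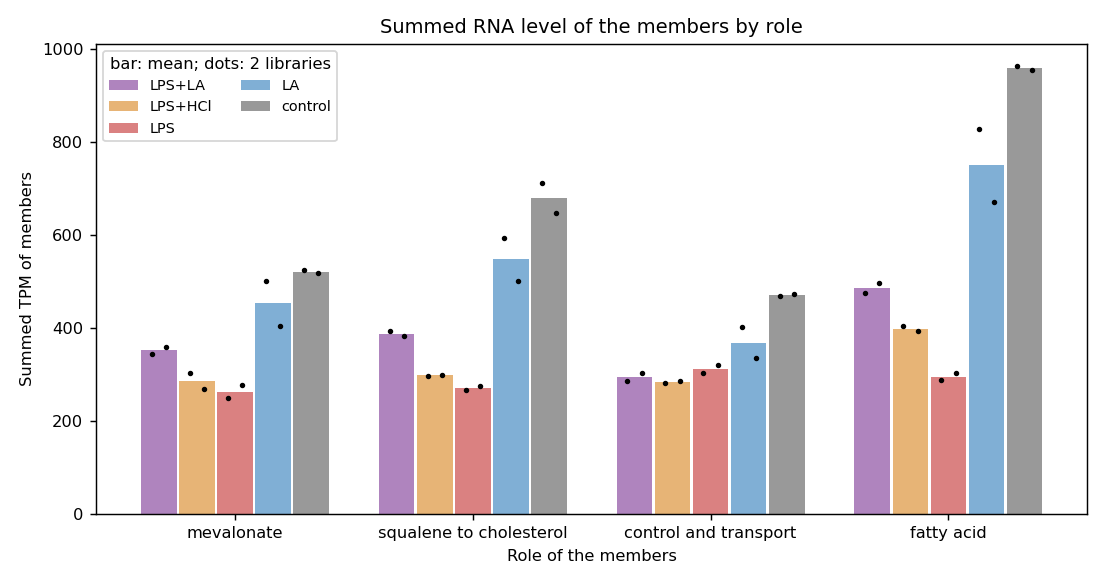
Summed TPM (vertical axis) of the genes of each role (horizontal axis) in LPS+LA, LPS+HCl, LPS, LA and control macrophages. Bars are means and dots the 2 libraries of a group; in the fatty acid role LPS averaged 295 TPM and control 959 TPM.

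LPS lowered the RNA of many synthesis enzymes within 3 h, most of all Scd2, Elovl6 and Dhcr7, and also that of the cholesterol carrier Stard4. LPS against control gave 17 of the 33 genes lower and 2 higher (quasi-likelihood test of edgeR with Benjamini-Hochberg adjustment over all 12213 genes, threshold 0.05), beside 32.4% of all tested genes lower and 32.4% higher. The median log2 change was -0.25 for the 33 genes and -0.05 for all tested genes. Under total-count scaling 30 were lower and 0 higher, with a median of -0.97 beside -0.77 for all genes. The share of all genes called under that scaling is not given here, so this count does not set the 33 genes apart. In bulk RNA, fewer cells of a type and less RNA per cell cannot be told apart. By role, 3 of 7 mevalonate genes, 6 of 11 squalene-to-cholesterol genes, 2 of 6 control and transport genes and 6 of 9 fatty acid genes were lower.

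In the mevalonate pathway, Acat2 (cytosolic acetoacetyl-CoA thiolase, the first step) had 9.72 and 11.6 CPM in LPS, against 24.3 and 26.4 CPM in control. Mvd (mevalonate diphosphate decarboxylase) had 8.94 and 11.96 CPM in LPS, against 30.5 and 32.0 CPM in control. Both LPS libraries lay below both control libraries for each gene. The fall was 2.38-fold for Acat2 (log2 -1.25 ± 0.14 SE, edgeR adjusted p = 2.16e-08) and 2.99-fold for Mvd (log2 -1.58 ± 0.16 SE, edgeR adjusted p = 5.16e-09). Mvk (mevalonate kinase) was lower by a smaller amount (log2 -0.83, edgeR adjusted p = 8.33e-06), while Hmgcs1 (HMG-CoA synthase), Pmvk (phosphomevalonate kinase), Idi1 (isopentenyl diphosphate isomerase) and Fdps did not pass. Counts of Acat2 and its near-identical paralog Acat3 could be split by the counting and are uncertain.

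Between squalene and cholesterol, Lss (lanosterol synthase, which closes the sterol rings) had 16.9 and 20.6 CPM in LPS, against 46.5 and 47.9 CPM in control. Dhcr7 (7-dehydrocholesterol reductase, the last step of the Kandutsch-Russell branch) had 17.4 and 16.6 CPM in LPS, against 60.6 and 58.4 CPM in control. All 4 values of LPS lay far below those of control, without overlap. Dhcr7 fell 3.50-fold (log2 -1.81 ± 0.11 SE, edgeR adjusted p = 5.06e-13) and Lss 2.53-fold (log2 -1.34 ± 0.15 SE, edgeR adjusted p = 1.27e-07). Sqle (squalene epoxidase, log2 -0.98), Msmo1 (sterol C4-methyl oxidase, -0.93), Fdft1 (squalene synthase, -0.62) and Nsdhl (sterol 4-alpha-carboxylate dehydrogenase, -0.25) were also lower. The Nsdhl call was lost without control replicate 1, LPS replicate 2, LPS+HCl replicate 1 or LPS+HCl replicate 2 (edgeR adjusted p up to 0.334), and also with DESeq2 size factors, with DESeq2 and without both libraries that held neuron markers. Fdft1 overlaps Ctsb in the annotation, as Srebf1 does Rai1 and Acaca does Tada2a, and the strand setting of the counting is not known here. Cyp51, Tm7sf2, Hsd17b7, Ebp and Sc5d, enzymes of the steps after lanosterol, did not pass.

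The regulators divided. Stard4, a cytosolic cholesterol carrier, had 17.9 and 17.6 CPM in LPS, against 72.9 and 59.4 CPM in control, a 3.72-fold fall (log2 -1.90 ± 0.16 SE, edgeR adjusted p = 1.38e-08). Srebf1 fell as well (log2 -0.57, edgeR adjusted p = 3.68e-06). Insig1 had 121.8 and 128.9 CPM in LPS, against 127.2 and 126.1 CPM in control, and the groups overlapped (log2 -0.01 ± 0.12 SE, edgeR adjusted p = 0.923). With total-count scaling Insig1 was lower (log2 -0.73, edgeR adjusted p = 2.06e-05), beside a median of -0.77 for all tested genes under that scaling. Srebf2 had 483.3 and 512.4 CPM in LPS, against 327.2 and 351.4 CPM in control, and Scap had 88.8 and 83.5 CPM in LPS, against 47.1 and 58.4 CPM in control. Srebf2 (log2 0.55) and Scap (log2 0.71) were the 2 genes called higher with TMM scaling, but under total-count scaling Srebf2 was lower (log2 -0.17, edgeR adjusted p = 0.0261) and Scap stood at -0.01. The number of genes called higher was 4 without LA replicate 1.

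The most negative log2 change of the 33 genes was that of a fatty acid gene. Scd2 had 63.6 and 65.0 CPM in LPS, against 688.3 and 670.9 CPM in control. The control libraries were more than 10 times as high as the LPS libraries, with each pair close together. The fall was 10.6-fold (log2 -3.40 ± 0.10 SE, edgeR adjusted p = 1.01e-16), and the log2 change stayed between -3.42 and -3.38 with any library left out. Elovl6 had 4.15 and 4.89 CPM in LPS, against 18.6 and 18.8 CPM in control, which was 4.14-fold lower (log2 -2.05 ± 0.19 SE, edgeR adjusted p = 1.48e-09). Fasn (fatty acid synthase) had 74.2 and 80.3 CPM in LPS, against 191.1 and 217.3 CPM in control, which was 2.64-fold lower (log2 -1.40 ± 0.09 SE, edgeR adjusted p = 2.83e-12). Fads1 (delta-5 desaturase) had 100.4 and 116.6 CPM in LPS, against 229.2 and 223.6 CPM in control, which was 2.09-fold lower (log2 -1.06 ± 0.09 SE, edgeR adjusted p = 5.14e-10). None of these 4 genes had overlapping groups. Acaca (acetyl-CoA carboxylase 1, log2 -0.41) and Fads2 (-0.37) were lower by less. Scd1, the desaturase most similar to Scd2, had 70.3 and 69.7 CPM in LPS, against 81.6 and 83.9 CPM in control (log2 -0.24, edgeR adjusted p = 0.22), and reads shared by Scd1 and Scd2 make both counts uncertain. Acly (ATP citrate lyase) and Acss2 (acetyl-CoA synthetase), which supply acetyl-CoA, did not pass.

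**Figure D2:**
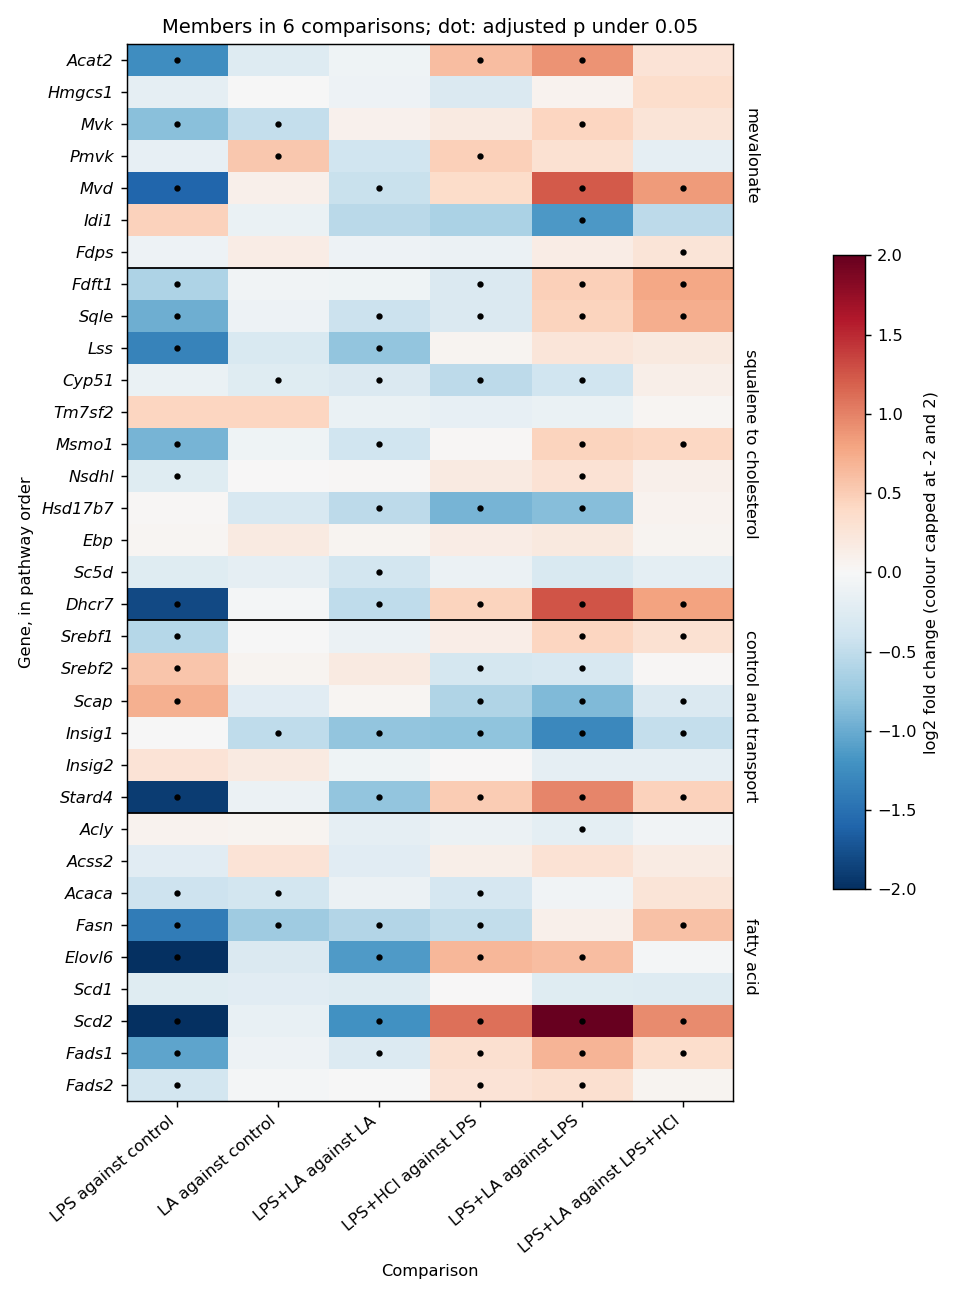
Log2 fold changes (colour, capped at -2 and 2) of the 33 genes, in pathway order down the page, in 6 comparisons along the horizontal axis, each named with its first group on top of the ratio. A dot marks an edgeR adjusted p under 0.05; Scd2 (-3.40) and Elovl6 (-2.05) are past the colour cap in LPS against control, and Scd2 (2.05) in LPS+LA against LPS.

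Adding lactic acid to LPS raised the desaturases Scd2, Fads1 and Fads2, several sterol enzymes and Stard4 and lowered Insig1, Idi1, Scap and Hsd17b7. LPS+LA against LPS gave 14 of 33 genes higher and 7 lower, beside 29.2% and 29.7% of all tested genes. The median log2 change was 0.24 for the 33 genes and 0.03 for all tested genes, and under total-count scaling 23 were higher and 4 lower, with a median of 0.64 beside 0.43. By role, 3 of 7 mevalonate genes were higher and 1 lower, 5 of 11 squalene-to-cholesterol genes were higher and 2 lower, 2 of 6 control and transport genes were higher and 3 lower, and 4 of 9 fatty acid genes were higher and 1 lower. This comparison and LPS against control use the same LPS libraries, so changes of opposite sign in both are not independent, and the levels of each group are given instead.

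In the mevalonate pathway, Acat2 had 18.8 and 21.0 CPM in LPS+LA, against 9.72 and 11.6 CPM in LPS, which was 1.86-fold higher (log2 0.90 ± 0.14 SE, edgeR adjusted p = 6.72e-06). Mvd had 25.2 and 23.8 CPM in LPS+LA, against 8.94 and 11.96 CPM in LPS, which was 2.34-fold higher (log2 1.23 ± 0.16 SE, edgeR adjusted p = 5.91e-07). Both groups were apart for each gene, and the LPS+LA values stayed below the control values given above. Idi1 went the other way, with 36.1 and 22.8 CPM in LPS+LA, against 62.1 and 68.3 CPM in LPS. It was 2.22-fold lower (log2 -1.15 ± 0.25 SE, edgeR adjusted p = 0.00614), with a wide gap between the LPS+LA libraries. The deposited Idi1 counts were not whole (673.68 and 431.53 in LPS+LA), so they could be split by the counting and are uncertain. Mvk was higher (log2 0.44, edgeR adjusted p = 0.0089), and that call was lost without LPS replicate 1 or LPS+LA replicate 1 (edgeR adjusted p up to 0.108).

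After squalene, Dhcr7 had 43.6 and 37.5 CPM in LPS+LA, against 17.4 and 16.6 CPM in LPS, which was 2.38-fold higher without overlap (log2 1.25 ± 0.11 SE, edgeR adjusted p = 1.15e-09). Fdft1 (log2 0.48), Sqle (0.44), Msmo1 (0.44) and Nsdhl (0.29) were higher by less, and the Nsdhl call was lost without LPS replicate 2 or LPS+LA replicate 2 (edgeR adjusted p up to 0.224) and with DESeq2. Lss had 26.0 and 18.2 CPM in LPS+LA, against 16.9 and 20.6 CPM in LPS, with overlapping groups (log2 0.24, edgeR adjusted p = 0.198). Hsd17b7 (3-ketosteroid reductase) had 10.5 and 11.3 CPM in LPS+LA, against 20.6 and 18.9 CPM in LPS, which was 1.81-fold lower (edgeR adjusted p = 1.49e-05). Both LPS+LA libraries lay well below both LPS libraries. Cyp51 (lanosterol 14-alpha-demethylase) was lower with TMM scaling (log2 -0.40, edgeR adjusted p = 0.000619) and at 0.00 with total-count scaling.

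Among the regulators, Stard4 had 31.0 and 39.0 CPM in LPS+LA, against 17.9 and 17.6 CPM in LPS, which was 1.97-fold higher (log2 0.98 ± 0.16 SE, edgeR adjusted p = 6.62e-05). Insig1 had 45.8 and 56.5 CPM in LPS+LA, against 121.8 and 128.9 CPM in LPS, which was 2.45-fold lower (log2 -1.29 ± 0.12 SE, edgeR adjusted p = 7.85e-08). The groups were apart for both genes, and they moved in opposite directions. Scap had 49.9 and 43.2 CPM in LPS+LA, against 88.8 and 83.5 CPM in LPS, which was 1.85-fold lower (edgeR adjusted p = 1.85e-07). Srebf1 was higher (log2 0.44, edgeR adjusted p = 0.000152). Srebf2 was lower with TMM scaling (log2 -0.33, edgeR adjusted p = 0.000359) and at 0.08 with total-count scaling.

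Scd2 had the highest log2 change of the 33 genes here too, with 263.6 and 268.3 CPM in LPS+LA, against 63.6 and 65.0 CPM in LPS. It was 4.14-fold higher (log2 2.05 ± 0.10 SE, edgeR adjusted p = 5.43e-13), and the LPS+LA libraries remained far below the control libraries. Fads1 had 170.6 and 177.6 CPM in LPS+LA, against 100.4 and 116.6 CPM in LPS, which was 1.61-fold higher without overlap (log2 0.68 ± 0.09 SE, edgeR adjusted p = 9.72e-07). Elovl6 had 6.10 and 7.74 CPM in LPS+LA, against 4.15 and 4.89 CPM in LPS (log2 0.62 ± 0.21 SE, edgeR adjusted p = 0.0137), and the call was lost without LPS replicate 1 or LPS+LA replicate 2 (edgeR adjusted p up to 0.143). Fads2 was higher (log2 0.32, edgeR adjusted p = 0.00115). Fasn had 83.2 and 82.5 CPM in LPS+LA, against 74.2 and 80.3 CPM in LPS, and did not pass (log2 0.10 ± 0.09 SE, edgeR adjusted p = 0.37). It did pass with total-count scaling (log2 0.50), beside a median of 0.43 for all tested genes under that scaling. Acly was lower (log2 -0.19), a call that was lost without any 1 of the LPS or LPS+LA libraries (edgeR adjusted p up to 0.191) and that turned to 0.21 with total-count scaling.

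**Figure D3:**
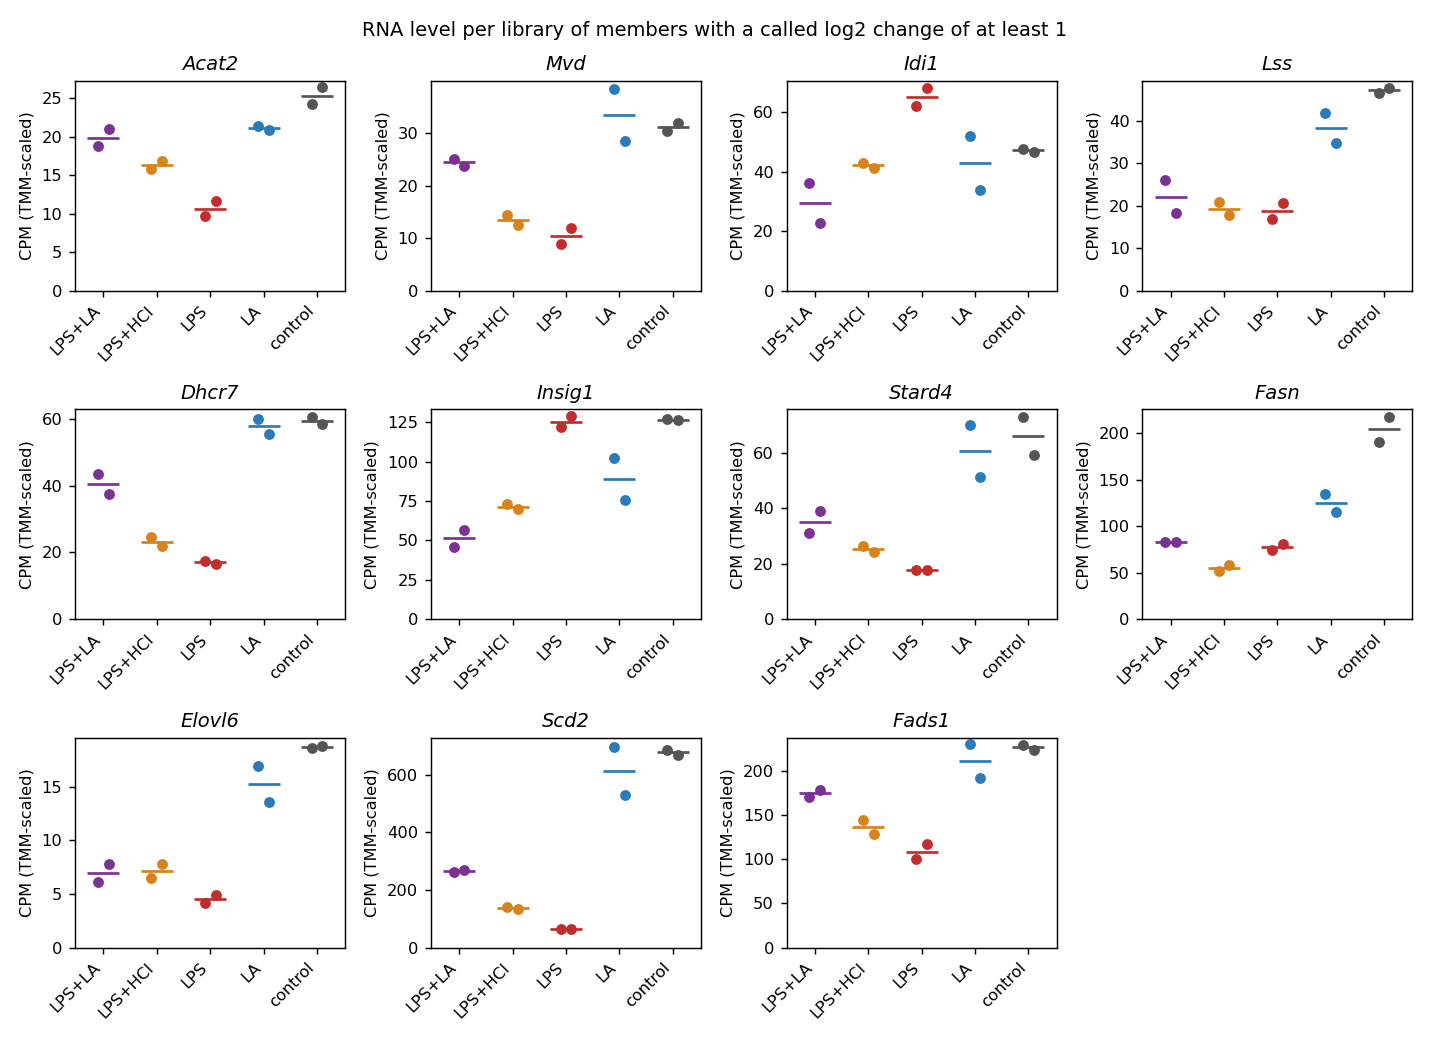
CPM with TMM scaling (vertical axes, each from 0) in every library (dots) of LPS+LA, LPS+HCl, LPS, LA and control macrophages for the 11 genes with a called log2 change of at least 1 in any of 6 comparisons; lines are means. In Scd2 the LPS libraries stand at 63.6 and 65.0 CPM and the LPS+LA libraries at 263.6 and 268.3 CPM, while in Insig1 LPS and control overlap and LPS+LA is the lowest.

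Without LPS, lactic acid moved few of these genes, and its effect differed with and without LPS for 19 of them. The labels give no dose for LA alone, so a difference in LA dose and LPS itself cannot be told apart. LA against control gave 1 of 33 genes higher and 5 lower, beside 20.4% and 17.9% of all tested genes, with a median log2 change of -0.10 beside 0.00. With total-count scaling 1 was higher and 10 lower, with a median of -0.21 beside -0.10 for all genes. Fasn had 134.4 and 115.2 CPM in LA, against 191.1 and 217.3 CPM in control, which was 1.64-fold lower without overlap (log2 -0.71 ± 0.09 SE, edgeR adjusted p = 1.26e-06). Insig1 had 102.3 and 75.4 CPM in LA, against 127.2 and 126.1 CPM in control, which was 1.43-fold lower (log2 -0.51 ± 0.12 SE, edgeR adjusted p = 0.00225). Both groups were apart, and the LA libraries differed from each other. Both calls held with any library left out. Pmvk was higher (log2 0.54), and Mvk (-0.48), Acaca (-0.37) and Cyp51 (-0.24) were lower. The Mvk call was lost without control replicate 2, the Acaca call without control replicate 2 or LA replicate 2, the Cyp51 call without control replicate 1, control replicate 2 or LA replicate 2, and the Pmvk call without control replicate 1 (edgeR adjusted p up to 0.0711, 0.173, 0.388 and 0.0935 in that order). The Pmvk and Cyp51 calls were also lost without both libraries that held neuron markers.

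Several genes called in the other comparisons did not pass here. Scd2 had 696.9 and 530.0 CPM in LA, against 688.3 and 670.9 CPM in control (log2 -0.15, edgeR adjusted p = 0.207). Dhcr7 had 60.0 and 55.6 CPM in LA, against 60.6 and 58.4 CPM in control (log2 -0.04, edgeR adjusted p = 0.767). Stard4 had 70.2 and 51.3 CPM in LA, against 72.9 and 59.4 CPM in control (log2 -0.12, edgeR adjusted p = 0.528). The LA and control libraries overlapped in these 3 genes. Acat2 had 21.4 and 20.9 CPM in LA, against 24.3 and 26.4 CPM in control, and Elovl6 had 17.0 and 13.5 CPM in LA, against 18.6 and 18.8 CPM in control. Neither gene passed (edgeR adjusted p = 0.102 for Acat2 and 0.158 for Elovl6), although their groups did not overlap. In each of these 5 genes LA replicate 1 was above LA replicate 2, as it was in the sum over the 33 genes. The count of genes called lower was 13 without LA replicate 1, 3 without LA replicate 2 and 2 without control replicate 2. The count called higher was 2 without LA replicate 1 or LA replicate 2, and 0 without control replicate 1 or without both libraries that held neuron markers.

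The difference between the LA effects was tested as an interaction, the log2 change of LPS+LA against LPS minus that of LA against control. It was above 0 for 15 of the 33 genes and below 0 for 4, beside 20.4% and 23.9% of all tested genes, with a median of 0.28 beside 0.00. With total-count scaling 22 were above 0 and 0 below, with a median of 0.79 beside 0.51 for all genes. Scd2 had the highest value (2.20 ± 0.13 SE, edgeR adjusted p = 4.75e-11), followed by Dhcr7 (1.30 ± 0.15 SE, edgeR adjusted p = 1.25e-07) and Acat2 (1.16 ± 0.19 SE, edgeR adjusted p = 1.82e-05). Fasn, which did not pass in LPS+LA against LPS, and was lower with LA alone, had an interaction of 0.81 (edgeR adjusted p = 1.56e-05). The 4 below 0 were Insig1 (-0.78), Scap (-0.66), Hsd17b7 (-0.54) and Srebf2 (-0.38), and with total-count scaling the first 3 did not pass and Srebf2 stood at 0.14. The calls of Lss and Hsd17b7 also depended on single libraries. The Lss call was lost without control replicate 1, control replicate 2, LPS replicate 1, LPS+LA replicate 1 or LA replicate 2 (edgeR adjusted p up to 0.298), and the Hsd17b7 call without control replicate 2, LPS replicate 1 or LPS+LA replicate 1 (edgeR adjusted p up to 0.126). Both calls were lost with DESeq2, and the Lss call without both libraries that held neuron markers. Idi1 had -1.01 ± 0.35 SE and did not pass (edgeR adjusted p = 0.0543).

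**Figure D4:**
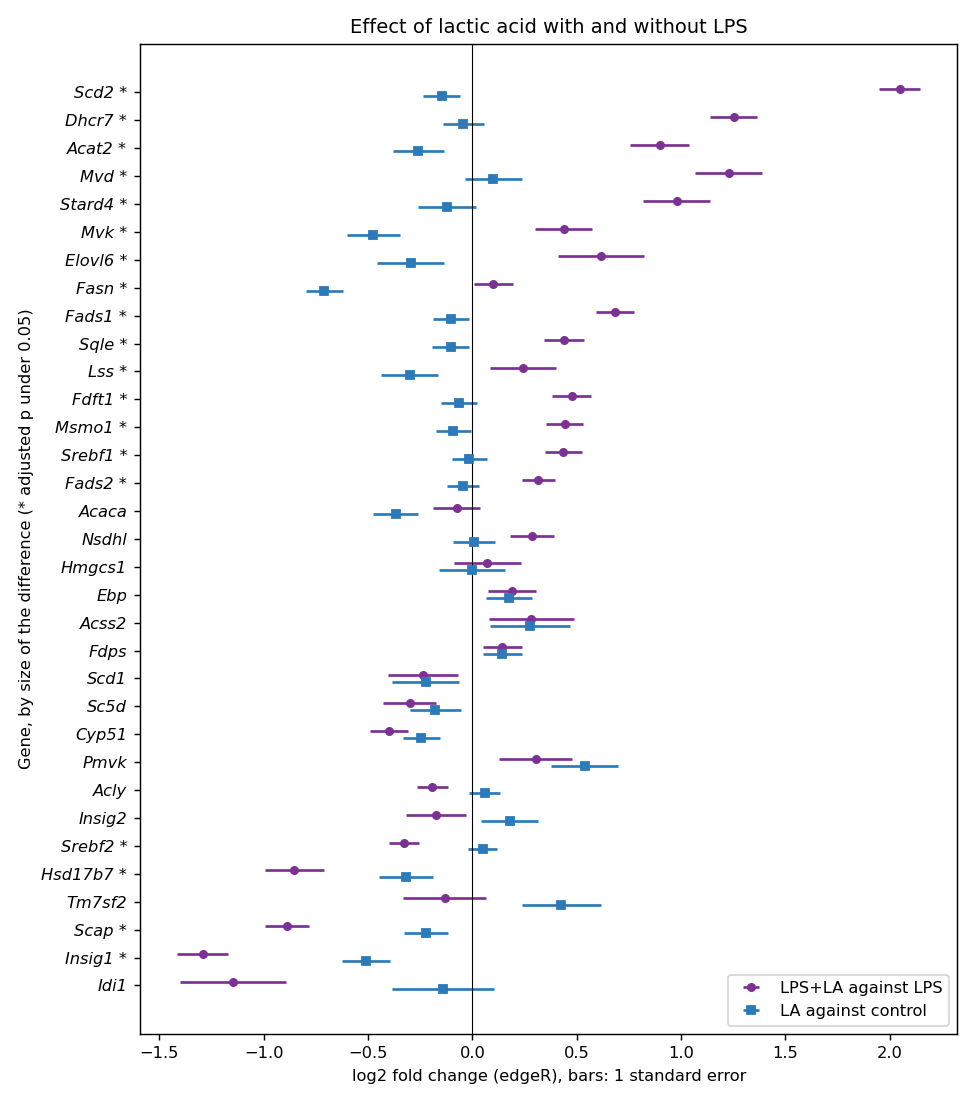
Log2 fold change (horizontal axis) of the 33 genes (vertical axis, ordered by the difference) for lactic acid with LPS (LPS+LA against LPS, circles) and without it (LA against control, squares); bars are 1 standard error, and a star marks an interaction with edgeR adjusted p under 0.05. The circles reach from -1.29 (Insig1) to 2.05 (Scd2), while the squares stay between -0.71 (Fasn) and 0.54 (Pmvk). The labels do not state the dose of lactic acid without LPS.

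Acid without added lactate moved some of these genes up and others down. Fewer were called than in LPS+LA against LPS, as was so over all tested genes. LPS+HCl against LPS gave 8 of 33 genes higher and 9 lower, beside 18% and 20.8% of all tested genes, with a median log2 change of 0.02 beside 0.01. With total-count scaling 14 were higher and 5 lower, with a median of 0.25 beside 0.25 for all genes. Scd2 had 142.1 and 134.7 CPM in LPS+HCl, against 63.6 and 65.0 CPM in LPS, which was 2.15-fold higher without overlap (log2 1.11 ± 0.10 SE, edgeR adjusted p = 2.23e-08). Acat2 had 15.9 and 16.9 CPM in LPS+HCl, against 9.72 and 11.6 CPM in LPS (log2 0.62 ± 0.14 SE, edgeR adjusted p = 0.00119). Those calls held with any library left out. The other genes called higher were Pmvk (log2 0.48), Dhcr7 (0.45), Stard4 (0.52), Elovl6 (0.66), Fads1 (0.32) and Fads2 (0.27).

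The calls of these 6 genes rested on few libraries. The Dhcr7 call was lost without LPS+HCl replicate 1 (edgeR adjusted p = 0.062). The Fads1 call was lost without LPS replicate 1 or LPS+HCl replicate 1, and the Elovl6 call without LPS replicate 1 or LPS+HCl replicate 2 (edgeR adjusted p up to 0.172 and 0.141 in that order). The calls of Pmvk, Stard4 and Fads2 were lost without LPS replicate 1, LPS replicate 2 or LPS+HCl replicate 1 (edgeR adjusted p up to 0.458, 0.117 and 0.119 in that order). Only 3 genes were called higher without LPS replicate 1 or LPS+HCl replicate 1. Of the 9 genes that fell, 6 passed with any library left out: Hsd17b7 (log2 -0.93), Insig1 (-0.81), Scap (-0.60), Cyp51 (-0.52), Fasn (-0.49) and Srebf2 (-0.35). Srebf2 did not pass with total-count scaling (log2 -0.12). Fdft1 (-0.29), Sqle (-0.29) and Acaca (-0.34) were lower as well. The Fdft1 and Sqle calls were lost without LPS replicate 1, LPS replicate 2 or LPS+HCl replicate 1 (edgeR adjusted p up to 0.158 and 0.16), the Acaca call without LPS replicate 1 or LPS+HCl replicate 2 (edgeR adjusted p up to 0.203), and all 3 with total-count scaling. The Pmvk call was lost with DESeq2, and the Elovl6 and Acaca calls without both libraries that held neuron markers.

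Among the falls, Insig1 had 73.1 and 69.7 CPM in LPS+HCl, against 121.8 and 128.9 CPM in LPS (edgeR adjusted p = 3.58e-05). Fasn had 51.2 and 58.7 CPM in LPS+HCl, against 74.2 and 80.3 CPM in LPS (edgeR adjusted p = 0.000233). In both genes the LPS+HCl libraries were below the LPS libraries without overlap, and for Fasn LPS+HCl was the lowest of the 5 groups. Idi1 had 43.1 and 41.2 CPM in LPS+HCl, against 62.1 and 68.3 CPM in LPS, and did not pass (log2 -0.63 ± 0.25 SE, edgeR adjusted p = 0.0889). Mvd had 14.4 and 12.6 CPM in LPS+HCl, against 8.94 and 11.96 CPM in LPS, and did not pass (log2 0.37 ± 0.17 SE, edgeR adjusted p = 0.0861). Lss had 20.8 and 17.8 CPM in LPS+HCl, against 16.9 and 20.6 CPM in LPS, with overlapping groups (log2 0.05, edgeR adjusted p = 0.847).

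Lactic acid and HCl were set against each other directly in the presence of LPS. LPS+LA against LPS+HCl gave 11 of 33 genes higher and 2 lower, beside 18.4% and 22.5% of all tested genes, with a median log2 change of 0.16 beside 0.00. With total-count scaling 19 were higher and 1 lower, with a median of 0.33 beside 0.16 for all genes. Without both libraries that held neuron markers 7 were higher and 1 lower. The amounts of acid were not matched in the labels, since LA is given as a concentration and HCl by an example pH, so the size of a difference cannot be set against dose. By role, 2 of 7 mevalonate genes, 4 of 11 squalene-to-cholesterol genes, 2 of 6 control and transport genes and 3 of 9 fatty acid genes were higher.

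Scd2 had 263.6 and 268.3 CPM in LPS+LA, against 142.1 and 134.7 CPM in LPS+HCl, which was 1.92-fold higher (log2 0.94 ± 0.09 SE, edgeR adjusted p = 8.97e-08). Mvd had 25.2 and 23.8 CPM in LPS+LA, against 14.4 and 12.6 CPM in LPS+HCl, which was 1.81-fold higher (log2 0.86 ± 0.15 SE, edgeR adjusted p = 7.89e-05). Dhcr7 had 43.6 and 37.5 CPM in LPS+LA, against 24.6 and 21.9 CPM in LPS+HCl, which was 1.75-fold higher (log2 0.80 ± 0.11 SE, edgeR adjusted p = 1.62e-06). No libraries of both groups overlapped in these genes. Fdft1 (log2 0.77, edgeR adjusted p = 4.44e-07) and Sqle (0.73, edgeR adjusted p = 1.29e-06), the first steps that commit isoprenoids to sterols, were higher, as were Fasn (0.59) and Msmo1 (0.41). Fdft1 had 50.6 and 53.7 CPM in LPS+LA, against 29.3 and 32.0 CPM in LPS+HCl, while LPS alone, at 38.0 and 37.0 CPM, lay between them. Those 7 calls held with any library left out.

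The other calls of this comparison depended on single libraries. Fads1 (log2 0.36) did not pass without LPS+HCl replicate 2, Srebf1 (0.30) without LPS+LA replicate 1 or LPS+HCl replicate 2, and Fdps (0.26) without LPS+LA replicate 2 or LPS+HCl replicate 2 (edgeR adjusted p up to 0.0736, 0.156 and 0.451 in that order). Stard4 (0.46) did not pass without LPS+LA replicate 2, LPS+HCl replicate 1 or LPS+HCl replicate 2 (edgeR adjusted p up to 0.217). Insig1 had 45.8 and 56.5 CPM in LPS+LA, against 73.1 and 69.7 CPM in LPS+HCl, and was lower (log2 -0.48 ± 0.12 SE, edgeR adjusted p = 0.00485), but not without LPS+LA replicate 1 (edgeR adjusted p = 0.0815). Scap was lower (log2 -0.29), but not without LPS replicate 1, LPS replicate 2, LPS+LA replicate 2 or LPS+HCl replicate 2 (edgeR adjusted p up to 0.325), nor with total-count scaling. Without both libraries that held neuron markers, Fads1, Srebf1, Fdps, Stard4 and Scap did not pass, and Fdps did not pass with DESeq2. The count of genes called higher was 7 without LPS+HCl replicate 2. The count called lower was 1 without LPS replicate 1, LPS replicate 2, LPS+LA replicate 2 or LPS+HCl replicate 2, and 4 without LA replicate 1 or LA replicate 2. Acat2 (log2 0.28 ± 0.13 SE), Elovl6 (-0.04 ± 0.19 SE), Idi1 (-0.52 ± 0.26 SE) and Hsd17b7 (0.07 ± 0.15 SE) did not pass.

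With lactic acid in both groups, Scd2 and Elovl6 had the largest falls with LPS, and 19 of the 33 genes did not pass. LPS+LA against LA gave 14 of 33 genes lower and 0 higher with edgeR, beside 14.6% and 15.9% of all tested genes, with a median log2 change of -0.26 beside -0.01. Among the 33 genes, the number called higher was 1 with DESeq2, with DESeq2 size factors, without the low-count filter, and without control replicate 1, control replicate 2 or LA replicate 1. With total-count scaling 23 were lower and 0 higher, with a median of -0.46 beside -0.22 for all genes. Scd2 had 263.6 and 268.3 CPM in LPS+LA, against 696.9 and 530.0 CPM in LA, which was 2.31-fold lower (log2 -1.21 ± 0.09 SE, edgeR adjusted p = 1.73e-09). Elovl6 had 6.10 and 7.74 CPM in LPS+LA, against 17.0 and 13.5 CPM in LA, which was 2.20-fold lower (log2 -1.14 ± 0.18 SE, edgeR adjusted p = 1.82e-05). Neither gene had overlapping groups.

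Insig1 had 45.8 and 56.5 CPM in LPS+LA, against 102.3 and 75.4 CPM in LA (log2 -0.80, edgeR adjusted p = 5.87e-05), although with TMM scaling LPS alone overlapped control. Stard4 (log2 -0.79), Lss (-0.79), Fasn (-0.59), Dhcr7 (-0.51), Sqle (-0.43) and Msmo1 (-0.40) were lower with any library left out. Hsd17b7 (-0.52) did not pass without LPS+LA replicate 1 (edgeR adjusted p = 0.0527), and Cyp51 (-0.29) and Sc5d (-0.37) did not pass without LPS+LA replicate 1 or LA replicate 1 (edgeR adjusted p up to 0.28 and 0.515). Mvd (-0.45) and Fads1 (-0.28) did not pass without LPS+LA replicate 1, LPS+LA replicate 2 or LA replicate 1 (edgeR adjusted p up to 0.314 and 0.315). Acat2 had 18.8 and 21.0 CPM in LPS+LA, against 21.4 and 20.9 CPM in LA, with overlapping groups (log2 -0.09, edgeR adjusted p = 0.643). Over the 6 comparisons with TMM scaling, 27 of the 33 genes passed at least once. Hmgcs1, Tm7sf2, Ebp, Insig2, Acss2 and Scd1 passed in none of the 6, nor in the interaction. With total-count scaling all of these but Tm7sf2 were lower in LPS against control (edgeR adjusted p from 1.5e-05 for Ebp to 0.00701 for Insig2). Their log2 changes ran from -0.45 (Insig2) to -0.96 (Scd1), beside a median of -0.77 for all tested genes under that scaling. Some also passed in other comparisons with that scaling, such as Hmgcs1 in LPS+LA against LPS (log2 0.47, beside a median of 0.43 for all tested genes).

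Genes next to these in the pathway were read from 4 lists. Their counts with TMM scaling stand beside 32.4% of all tested genes higher and 32.4% lower in LPS against control, and 29.2% higher and 29.7% lower in LPS+LA against LPS. No such share is given for counts with total-count scaling. Under that scaling the median of all tested genes was -0.77 in LPS against control and 0.43 in LPS+LA against LPS. Of the 9 genes for SREBP processing and turnover, 4 were higher and 2 lower in LPS against control, and 1 was higher and 7 lower in LPS+LA against LPS. With total-count scaling those counts became 2 higher and 6 lower for LPS, and 1 higher and 4 lower for LPS+LA. The list's median log2 change was -0.01 for LPS against control and -0.58 for LPS+LA against LPS, beside -0.05 and 0.03 for all tested genes. Rnf145, a membrane ubiquitin ligase of sterol sensing, had 53.4 and 55.6 CPM in LPS+LA, 59.9 and 55.0 CPM in LPS+HCl, 125.3 and 122.3 CPM in LPS, 55.2 and 51.1 CPM in LA, and 43.9 and 43.6 CPM in control. It was high in the LPS libraries only, with a log2 change of -1.18 in LPS+LA against LPS (edgeR adjusted p = 1.67e-11) and -1.11 in LPS+HCl against LPS (edgeR adjusted p = 2.14e-10). Rnf139, another such ligase, also fell in LPS+LA against LPS (log2 -1.50, edgeR adjusted p = 2.45e-11).

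The median log2 change of 14 other isoprenoid and sterol enzymes was 0.05 in LPS against control and -0.01 in LPS+LA against LPS. Of these, 5 were higher and 4 lower in LPS against control, near the 32.4% of all tested genes in each direction with TMM scaling. With total-count scaling 2 were higher and 9 lower. In LPS+LA against LPS 2 were higher and 5 lower, beside 29.2% and 29.7% with TMM scaling, and with total-count scaling 8 were higher and 3 lower. Aacs (acetoacetyl-CoA synthetase) fell in LPS against control (log2 -1.35, edgeR adjusted p = 1e-09) and did not pass in LPS+LA against LPS (0.04, edgeR adjusted p = 0.797). Nus1, a subunit of the enzyme that makes dolichol precursors, rose in LPS against control with TMM scaling (log2 0.81, edgeR adjusted p = 2.03e-09) and did not pass with total-count scaling (0.09).

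Of 24 other fatty acid and glycerolipid enzymes, 22 were tested. In LPS against control 9 were higher and 7 lower, beside 32.4% of all tested genes in each direction with TMM scaling. With total-count scaling 2 were higher and 14 lower. In LPS+LA against LPS 7 were higher and 7 lower, near the 29.2% and 29.7% of all tested genes with TMM scaling. With total-count scaling 12 were higher and 2 lower. The list's median log2 changes were 0.21 in LPS against control and 0.10 in LPS+LA against LPS. Lpin1 (a phosphatidate phosphatase on the way to triglycerides) had 21.5 and 19.1 CPM in LPS+LA, 3.34 and 2.65 CPM in LPS+HCl, 0.907 and 1.32 CPM in LPS, 47.1 and 33.9 CPM in LA, and 30.6 and 32.3 CPM in control. No group of Lpin1 overlapped its LPS libraries, and it was 18.1-fold higher in LPS+LA against LPS (log2 4.18 ± 0.24 SE, edgeR adjusted p = 4.8e-13) and 6.77-fold higher in LPS+LA against LPS+HCl (log2 2.76 ± 0.19 SE, edgeR adjusted p = 6.59e-11). Mid1ip1, a partner of acetyl-CoA carboxylase, had 146.4 and 152.2 CPM in LPS+LA, against 37.3 and 43.4 CPM in LPS (log2 1.89, edgeR adjusted p = 2.38e-14). Acsl1, an enzyme that activates long-chain fatty acids, had 105.2 and 107.9 CPM in LPS+LA, against 403.2 and 396.0 CPM in LPS (log2 -1.91, edgeR adjusted p = 1.77e-16). Acsl3, of the same enzyme family, rose in LPS+LA against LPS (log2 1.26, edgeR adjusted p = 4.85e-07), opposite to Acsl1.

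Of 9 oxysterol and LXR genes, 8 were tested. In LPS against control 4 were higher and 2 lower, beside 32.4% of all tested genes in each direction with TMM scaling. With total-count scaling 1 was higher and 6 lower. In LPS+LA against LPS 3 were higher and 3 lower, beside 29.2% and 29.7% of all tested genes with TMM scaling. With total-count scaling 5 were higher and 2 lower. The list's median log2 changes were 0.22 in LPS against control and -0.07 in LPS+LA against LPS. Ch25h, which makes 25-hydroxycholesterol, had 102.5 and 90.9 CPM in LPS+LA, 479.9 and 501.6 CPM in LPS+HCl, 258.0 and 289.7 CPM in LPS, 14.8 and 20.7 CPM in LA, and 25.9 and 28.0 CPM in control. The 5 groups did not overlap, and LPS+LA lay below LPS while LPS+HCl lay above it. Ch25h was 5.07-fold lower in LPS+LA against LPS+HCl (log2 -2.34 ± 0.10 SE, edgeR adjusted p = 2.18e-12). Abcg1, a cholesterol exporter, fell in LPS+LA against LPS (log2 -1.26, edgeR adjusted p = 5.76e-13) and in LPS+HCl against LPS (log2 -1.51, edgeR adjusted p = 1.66e-13).

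Open chromatin near these genes was read from peak lists, which the authors called per sample and which hold no read counts. A peak lay within 1000 bases of a listed gene start, or of the gene's bounds for the 7 genes without a promoter window, in all 12 samples for 32 of the 33 genes. For the 26 genes with a listed start this was 25, beside 91.2% of the 9797 tested genes with one. Acaca was the exception, with a peak in 3 of 3 LPS+LA samples, 3 of 3 LPS samples, 2 of 3 LA samples and 1 of 3 control samples at a start that lies inside the gene's bounds. Dhcr7, whose RNA was 3.50-fold lower with LPS, has several listed starts and had a peak near at least 1 of them in every LPS sample. For Scd2 and Stard4, which have no promoter window, the peak may lie anywhere within or near the gene's bounds. Peak presence says nothing of peak height.

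Within 10 kb of the 33 genes there were 204 merged sites of 127890 in all. A peak in all LPS samples and no control sample was found at 10 sites (4.9%, beside 8.27% of all sites), and the reverse at 2 (0.98%, beside 2.44%). A peak in all LPS+LA samples and no LPS sample was found at 7 sites (3.43%, beside 2.24%), and the reverse at 1 (0.49%, beside 2.29%). LPS+LA and LA samples ran on a different lane from LPS and control samples, per the file headers, so lane and lactic acid cannot be told apart. The 7 sites lay at Hmgcs1, Insig1, Acaca, Elovl6, Fads1 and Fads2, with 2 at Fads2. The Hmgcs1 site (mm10 chr13:119706059-119706558, inside the gene's bounds) had a peak in 3 of 3 LPS+LA and 3 of 3 LA samples and in 0 LPS and 0 control samples. The Fads1 site (chr19:10177179-10177435, 5442 bases before the gene's bounds) had the same pattern. The Insig1 site (chr5:28083035-28083395, 4373 bases past the gene's bounds) had a peak in 3 of 3 LPS+LA samples and in 0 of the other samples. Outside the 7, a site at Elovl6 (chr3:129634494-129634813) had a peak in 2 of 3 LPS+LA, 0 LPS, 0 LA and 3 of 3 control samples. Of the genes near these 7 sites, Elovl6, Fads1 and Fads2 were higher in RNA in LPS+LA against LPS, Insig1 was lower, and Hmgcs1 and Acaca did not pass. With total-count scaling Hmgcs1 (log2 0.47) and Acaca (0.33) passed as higher, beside a median of 0.43 for all tested genes under that scaling.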

How the data were processed

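The 33 genes and the other lists were chosen with earlier results of these data known. For RNA the authors deposited expected counts, FPKM and TPM per gene and library. HISAT and Bowtie2 with GRCm38.p6 are named, per the submitters' processing notes, while the sources used here do not name the counting tool or its strand setting. The deposited expected counts, 6.07% of them not whole, were rounded, and genes were kept by filterByExpr (minimum count 10, minimum total 15). All 10 libraries were fitted together in edgeR 4.0.16 (TMM, glmQLFit, robust), and comparisons were tested two-sided by its quasi-likelihood test, with Benjamini-Hochberg adjustment over 12213 genes and a threshold of 0.05. CPM are TMM-scaled, the deposited TPM served for levels between genes, and the deposited FPKM values were not used. Replicates differed beyond counting noise in each group. Values per library are given for those of the 33 genes with a called absolute log2 of at least 1. In places they are also given for Srebf2, Scap, Hsd17b7, Fdft1 and Scd1, which do not meet that rule, and for some genes of the other lists. From each other list, up to 4 genes with the smallest adjusted p in a comparison could be named. The fit was tested on simulated data. Alternatives were total-count scaling, DESeq2 size factors, DESeq2 1.42.0, no filter, a replicate block, and leaving out libraries. For ATAC-seq the authors deposited peaks with a score, made with MACS2 2.0.10 on mm10 per the submitters' processing notes, which also name BWA 0.5.9 and Picard. The score served only as a filter in an alternative, and sites were merged at an overlap of 1 bp.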

Additional observations from a re-analysis of the deposited data

Results flagged for a closer look

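The change with lactic acid differed with and without LPS, by the test of the difference itself, for 19 of the 33 genes (quasi-likelihood test of edgeR, Benjamini-Hochberg adjusted p under 0.05). Values are the log2 change of LPS+LA against LPS minus that of LA against control. Fatty acid genes had 2.20 for Scd2, 0.91 for Elovl6, 0.81 for Fasn, 0.79 for Fads1 and 0.36 for Fads2. Mevalonate genes had 1.16 for Acat2, 1.13 for Mvd and 0.91 for Mvk. Between squalene and cholesterol the values were 1.30 for Dhcr7, 0.54 for Fdft1, 0.54 for Sqle, 0.54 for Lss, 0.53 for Msmo1 and -0.54 for Hsd17b7. Among control and transport genes they were 1.10 for Stard4, 0.45 for Srebf1, -0.38 for Srebf2, -0.66 for Scap and -0.78 for Insig1. The 4 negative values did not pass with total-count scaling.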

How the results depend on the processing

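Total-count scaling moved the counts of the 33 genes called: in LPS against control to 0 higher and 30 lower, in LA against control to 10 lower, in LPS+LA against LPS to 23 higher and 4 lower, in LPS+HCl against LPS to 14 higher and 5 lower, in LPS+LA against LPS+HCl to 19 higher and 1 lower, in LPS+LA against LA to 23 lower, and in the interaction to 0 below 0. The same scaling turned Srebf2 (-0.17) and Scap (-0.011) in LPS against control, Cyp51 (0.0033), Srebf2 (0.075) and Acly (0.21) in LPS+LA against LPS, Srebf2 in the interaction (0.14) and Abcg1 in LPS against control (-0.38). The share of all tested genes called under total-count scaling is not given beside these counts. Total-count scaling leaves out the TMM factors, and whether these factors reflect RNA composition alone was not tested. Without the low-count filter 8 genes were lower in LA against control. DESeq2, its size factors and no filter each gave 1 gene higher in LPS+LA against LA. Without both libraries with neuron markers, 0 were higher in LA against control, and 7 were higher and 1 lower in LPS+LA against LPS+HCl. The cause was not tested.

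Leaving out 1 library at a time gave, in LPS against control, 2 to 4 higher and 16 to 20 lower. In LA against control it gave 0 to 2 higher and 2 to 13 lower, in LPS+LA against LPS 12 to 14 higher and 6 to 9 lower, and in LPS+HCl against LPS 3 to 9 higher and 6 to 11 lower. In LPS+LA against LPS+HCl it gave 7 to 13 higher and 1 to 4 lower, in LPS+LA against LA 0 to 1 higher and 10 to 18 lower, and in the interaction 14 to 19 above and 3 to 6 below 0.

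Deviations of libraries that share a replicate number had correlations from -0.503 to 0.0495 between groups. The lowest was between control and LPS+HCl, the groups with the libraries that held neuron markers. With 2 libraries a group this check cannot exclude pairing, and the main fit treated the libraries as unpaired. With the replicate block, LPS+HCl against LPS gave 8 higher and 10 lower, the interaction 15 above and 5 below 0, and each other comparison its main counts. Genes with few reads, such as Elovl6 (64 in its lowest library), have the lowest counting precision.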
